A study of Mus musculus with 4 samples.

Results

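Voltage-gated sodium channels, voltage-gated calcium channels and hyperpolarization-activated HCN channels were compared by family between cocaine and saline in the globus pallidus of the mouse. Members were all genes whose symbol in the array annotation begins with Scn and a digit, with Cacna, Cacnb or Cacng, or with Hcn and a digit. This gave 38 genes, measured by 72 features, of 18840 genes tested. The rule used names and no measured value, but it was set with earlier results of these data known.

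The cocaine animals were 4 male C57BL6 mice given cocaine at 15 mg/kg on days 2, 3 and 4 of conditioned place preference, where the time spent in a drug-paired compartment gives the score, and their score was high. The saline animals were 4 male C57BL6 mice given saline on the same days. Each of 4 Agilent whole-genome arrays with 2 colours set 1 cocaine mouse against 1 saline mouse, which makes 4 mouse pairs. The red dye Cy5 marked the cocaine mouse in pairs 1 and 3 and the saline mouse in the other pairs, with the green dye Cy3 on its partner. The sources used here state neither the age of the animals nor the time between the last dose and dissection.

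Sodium channels open on depolarization and carry the upstroke of the action potential; their alpha subunit forms the pore and the beta subunits set gating and placement in the membrane. Calcium channels turn depolarization into calcium entry, with an alpha1 subunit as the pore and alpha2delta, beta and gamma subunits around it. HCN channels open on hyperpolarization, are tuned by cyclic AMP and pass an inward current between spikes. Neurons of the globus pallidus fire without synaptic drive at high rates, and sodium and HCN currents are among those known to set their pace.

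All values are log2 ratios of cocaine over saline after loess normalization within each array. The deposited ratios changed sign with the dye orientation (Pearson's r across features of 0.889 and 0.892 within an orientation, and of -0.947 to -0.847 between orientations), so the columns were read as turned to 1 treatment direction. Which group is the numerator is not stated. Cocaine was taken as the likely numerator since the design text names it first, and with saline as numerator every sign given here would turn. The fitted change of a gene comes from limma with a dye term, and its SE is the moderated standard error over 4 pairs. The signal of a feature is the mean of both channels, recovered from the ratios in units of 0.5 scanner counts, and it still holds background, so changes of dim genes are understated. A feature with a signal under 150 is called dim. All 8 pallidal and GABA neuron markers on the list were above the dim limit. Their signals ran from 256 for Kcng4 to 8423 for Gad2, an enzyme of GABA synthesis, with 5439 for Pvalb and 7768 for Npas1. Of the 3 cortical markers measured, Slc17a7 (127) and Tbr1 (129) were dim and Emx1 read 451. The 5 striatal markers measured read 205 to 1869. The 3 markers of skeletal and heart muscle read 141 to 300, and the 2 of cerebellar Purkinje cells 367 to 1514. The median signal of all features was 186, so a signal above the dim limit does not by itself mark pallidal tissue. Signals of different probes were not compared as levels. In bulk tissue, fewer cells of a type and less RNA per cell cannot be told apart.

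No channel gene passed the threshold of an adjusted p of 0.05 (limma, Benjamini-Hochberg over all genes), and neither did any of the 18840 genes (0% higher and 0% lower; smallest adjusted p = 0.966). At an unadjusted p under 0.05, 0 channel genes were higher and 1 was lower, Cacna2d3. This is 2.63% of the members, where 2.61% of all genes were under that limit (0.897% higher and 1.71% lower). Of the 38 members, 14 had a fitted change above 0 and 24 below 0 (63.2%), against 46.6% above 0 and 53.4% below 0 among all genes. The median fitted change was -0.024 for the members and -0.0061 for all genes; the members' median was 0.00033 when arrays were centred on the median without loess, and 0.00041 without pair 1. Fitted changes of the members ran from -0.25 (Cacna2d3) to 0.15 (Cacna2d4), and their median absolute size was 0.040, against a median SE of 0.066. The 95% intervals of the fit held 0 for 37 of the 38 genes; their lowest bound was -0.43 and their highest was 0.34.

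**Figure D1:**
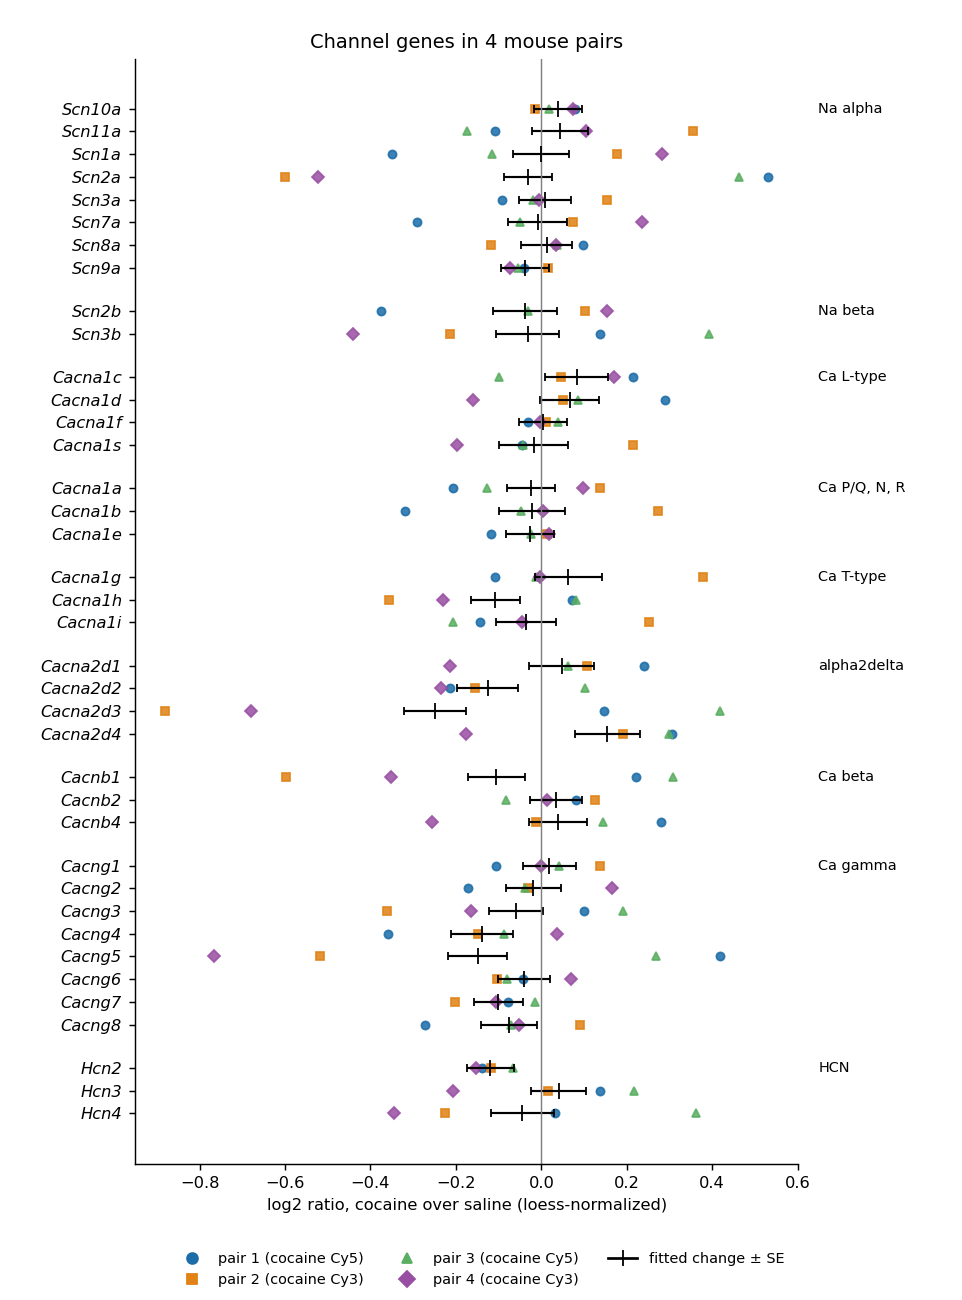
Normalized log2 ratio (cocaine over saline) of each of the 38 channel genes in each mouse pair, 1 symbol per pair, with the fitted change and its moderated SE (n = 4 pairs) as a black bar, grouped by family. Hcn2 lies at -0.15 to -0.067 in all 4 pairs, while Cacna2d3, Cacng5 and Scn2a are above 0 in pairs 1 and 3 and below 0 in pairs 2 and 4.

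Hcn2 and Cacng7 were the 2 members with 1 sign of the normalized ratio throughout the 4 pairs (5.26%, against 6.5% of all genes). Both had normalized ratios below 0, and neither passed the threshold. Before normalization the ratios of both turned with the dye, as did the column medians (0.42, -0.58, 0.41 and -0.43). The deposited ratios were 0.91, -2.17, 1.05 and -1.23 for Hcn2, and 0.80, -1.66, 0.87 and -0.96 for Cacng7. Their single sign thus rests on the normalization. Promoter sequence is shown for these genes and for Cacna2d3, the member with the smallest p, to give the region before each gene's start. It comes from RefSeq (GRCm38.p6), 120 bases up to the start, 5′ to 3′ on the gene's strand, with GC boxes (GGGCGG on either strand, the site of Sp-family factors) in capitals.
Hcn2, chr10:79716514-79716633, plus strand: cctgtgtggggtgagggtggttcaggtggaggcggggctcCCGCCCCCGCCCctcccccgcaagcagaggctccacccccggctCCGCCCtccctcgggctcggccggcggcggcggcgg
Cacng7, chr7:3332705-3332824, plus strand: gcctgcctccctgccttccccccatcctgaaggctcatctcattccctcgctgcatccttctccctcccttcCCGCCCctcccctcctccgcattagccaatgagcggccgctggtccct
Cacna2d3, chr14:29721865-29721984, minus strand: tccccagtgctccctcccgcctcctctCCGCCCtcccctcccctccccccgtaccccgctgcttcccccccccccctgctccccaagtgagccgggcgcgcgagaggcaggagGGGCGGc
The stretch of Hcn2 is 80.8% G and C, that of Cacna2d3 78.3% and that of Cacng7 65.8%. Across the 250 bases before the start, 29 of the 38 members had at least 1 entry, with 39 promoters in all. A GC box was found in 41.03% of these promoters and in 32.74% of all 32851. The cyclic AMP response element TGACGTCA was found in 0 of the 39 and in 1.55% of all promoters. The AP-1 site TGANTCA was found in 1 (Cacng5) and in 6.75% of all, the E-box CACGTG in 0 and in 6.02% of all, and the TATA box TATAAA in 2 (Cacna1d and Scn2a) and in 12.37% of all. Each motif was searched on both strands, and these are matches of letters only.

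Among HCN channels, 1 of 3 had a fitted change above 0 and 2 below, with a median of -0.045 (0.038 without pair 1). Hcn2, a strongly cyclic AMP-sensitive member common in deep brain nuclei, had ratios of -0.14, -0.12, -0.067 and -0.15 in pairs 1 to 4. All 4 are below 0, and their SD of 0.038 is small beside that of most members. The fitted change was -0.12 ± 0.056 (moderated SE, n = 4; 95% interval -0.26 to 0.017; limma, unadjusted p = 0.0766 and adjusted p = 0.966), at a signal of 2143. The change was between -0.14 and -0.10 with any 1 pair left out. Its size depended on the normalization. It was -0.36 for the ratios as deposited, where the median of all genes was -0.080. With arrays centred on the median and no loess it was -0.29, where the median of all genes was -0.014. In the same pairs the pallidal marker Npas1 also lay below 0 throughout, at -0.15, -0.069, -0.14 and -0.058. No other pallidal marker on the list kept 1 sign in all 4 pairs, and 4 of the 8 had a fitted change above 0. The mean over all 8 pallidal markers was -0.076, -0.026, 0.081 and -0.035 (signals 256 to 8423). The part of these markers in the result was not tested. Hcn3 had 0.14, 0.015, 0.22 and -0.21, with pair 4 apart in sign and a fitted change of 0.040 ± 0.064. Its bright feature (signal 3737) gave 0.091 and its dim one (119) -0.011. Hcn4, the slowest member and a pacemaker channel of the heart, had 0.031, -0.23, 0.36 and -0.35 and a fitted change of -0.045 ± 0.074. These averaged ratios were above 0 in the pairs with cocaine in Cy5 and below 0 in the other pairs. The dim feature of Hcn4 (signal 146) had that pattern, at 0.54, -0.88, 0.66 and -0.61. The brighter one (293) did not, at -0.48, 0.43, 0.060 and -0.085.

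Of the 8 gamma subunits 7 were below 0, of which Cacng2 and Cacng6 changed sign with 1 pair left out. The median fitted change of the gamma subunits was -0.067 (all genes, 53.4% below 0 and a median of -0.0061). The median stayed below 0 under every alternative processing tried, with -0.12 for the ratios as deposited, where the median of all genes was -0.080, and with -0.043 without pair 1. Their median ratio lay below 0 in every pair, at -0.092, -0.13, -0.026 and -0.026. Most are transmembrane AMPA receptor regulatory proteins, which carry AMPA receptors to synapses and slow their gating, and Cacng1 and Cacng6 are known chiefly as subunits of muscle calcium channels. Cacng7 had ratios of -0.078, -0.20, -0.015 and -0.11 and a fitted change of -0.10 ± 0.057 (adjusted p = 0.966 in limma), at a signal of 525. All 4 pairs lie below 0, with pair 3 close to it. Cacng4 had -0.36, -0.15, -0.086 and 0.036 and a fitted change of -0.14 ± 0.072, which was -0.071 without pair 1 and -0.093 without pair 2. Pair 4 is the exception in sign. Cacng5 had 0.42, -0.52, 0.27 and -0.77 and a fitted change of -0.15 ± 0.069 (-0.21 without pair 2 and -0.087 without pair 4). These ratios turn with the dye. Cacng2, which encodes stargazin, had -0.17, -0.032, -0.038 and 0.17 and a fitted change of -0.019 ± 0.065. Its 4 features disagreed: the brightest (signal 1360) had -0.20 and the dimmest (120) had 0.13. Cacng1, Cacng3, Cacng6 and Cacng8 had fitted changes of 0.019, -0.059, -0.040 and -0.076. Cacng7, Cacng8 and Cacng6 are neighbours on chromosome 7, and all of them were below 0; Cacng1, Cacng4 and Cacng5 are neighbours on chromosome 11, with 1 above 0 and the other two below.

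**Figure D2:**
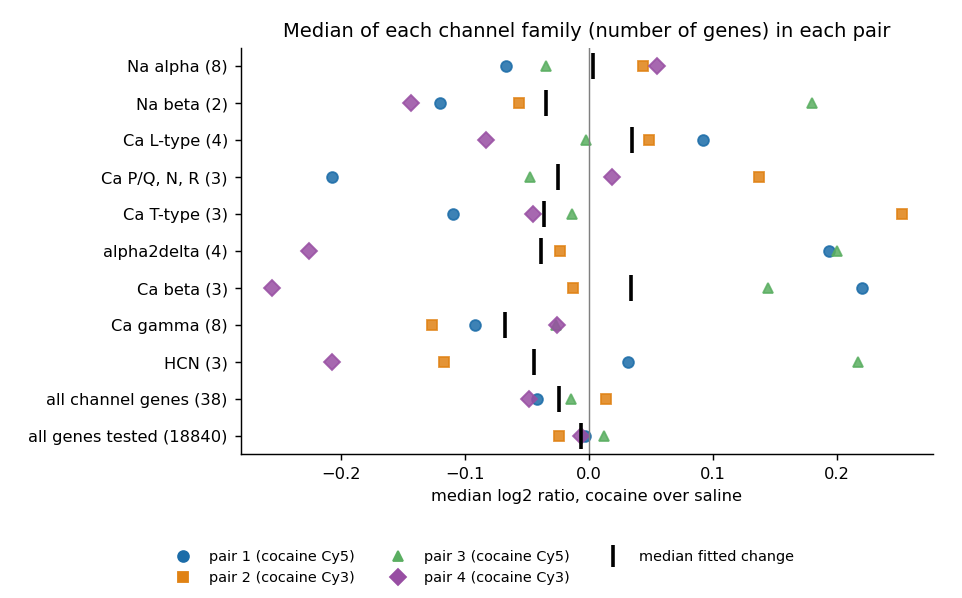
Median normalized log2 ratio (cocaine over saline) over the genes of each family in each mouse pair, with the median fitted change as a black bar; the number of genes is in parentheses. The gamma subunits lie at -0.13 to -0.026 in the 4 pairs, while every other family has medians on both sides of 0.

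Alpha2delta subunits, which raise the number of calcium channels at the membrane and bind gabapentin in the case of Cacna2d1 and Cacna2d2, held the extremes of the channel genes in both directions, with 2 of 4 above 0 and a median of -0.039 (0.012 without pair 4). Cacna2d3 had ratios of 0.15, -0.88, 0.42 and -0.68 in pairs 1 to 4. The pairs with cocaine in Cy5 are above 0 and those with cocaine in Cy3 far below it, a spread (SD) of 0.63. The fitted change was -0.25 ± 0.073 (95% interval -0.43 to -0.070; limma, unadjusted p = 0.0143 and adjusted p = 0.966), at a signal of 291. The SE leaves out the part that turns with the dye, which was 0.53 for this gene (Cy5 over Cy3, adjusted p = 0.0121 in limma). Without the dye term or with the ratios as deposited, Cacna2d3 was no longer under an unadjusted p of 0.05, nor was it without pair 1 (-0.18) or without pair 2 (-0.20). Cacna2d4 had 0.31, 0.19, 0.30 and -0.18, above 0 in 3 pairs and below 0 in pair 4. Its fitted change was 0.15 ± 0.076, 0.063 without pair 2 and 0.25 without pair 4. Cacna2d2 had -0.21, -0.15, 0.10 and -0.24 and a fitted change of -0.13 ± 0.072 (-0.047 without pair 1 and -0.20 without pair 3). Its 4 features, with signals of 179 to 11180, were all below 0, from -0.20 to -0.087. Cacna2d1 had 0.24, 0.11, 0.061 and -0.22 and a fitted change of 0.048 ± 0.076.

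**Figure D3:**
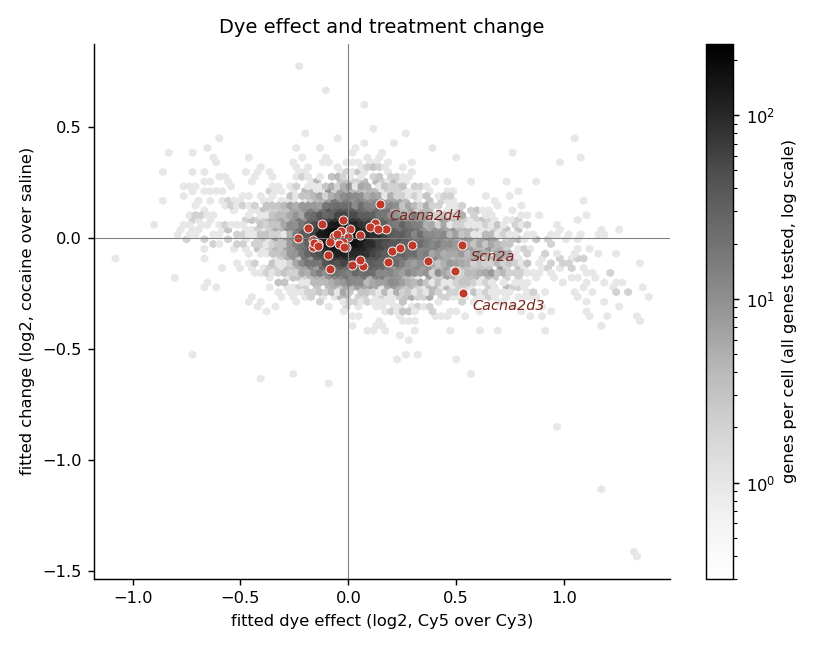
Fitted dye effect (log2, Cy5 over Cy3) against the fitted change (log2, cocaine over saline) for all 18840 genes in grey (darker cells hold more genes, log colour scale) and the 38 channel genes in red. Cacna2d3 and Scn2a, both with a dye effect of 0.53, lie at the right edge of the members.

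For 4 members, Cacna2d3, Scn2a, Cacng5 and Cacnb1, the dye term passed an adjusted p of 0.05 in limma after normalization (10.5%, against 9.56% of all genes). With cocaine as the numerator, the Cy5 channel of these genes was brighter than the Cy3 channel after normalization by 0.37 to 0.53 on the log2 scale; with saline as the numerator it would be dimmer by as much. In each of them the ratios of the 4 pairs alternate in sign. The median dye effect was 0.17 for beta subunits, 0.14 for HCN channels and 0.12 for alpha2delta subunits, -0.12 for T-type and -0.14 for P/Q-, N- and R-type alpha1 subunits, and 0.0047 over all genes.

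Sodium channel alpha subunits were centred near 0, with 4 of 8 above 0, a median of 0.0037 (-0.029 for the ratios as deposited) and a range of -0.039 to 0.044. Scn8a encodes the channel of the axon initial segment and node of Ranvier that supports repetitive firing, and its ratios were 0.097, -0.12, 0.036 and 0.035. These pairs lie close to 0, and the fitted change was 0.012 ± 0.060 (95% interval -0.13 to 0.16). Its bright feature (signal 27885) gave -0.053 and its other feature (394) gave 0.078. Scn1a, the sodium channel on which fast-spiking inhibitory neurons rely, had -0.35, 0.18, -0.12 and 0.28, below 0 where cocaine was in Cy5, and a fitted change of -0.0015 ± 0.066. Scn2a, a channel of excitatory and other projection neurons, had 0.53, -0.60, 0.46 and -0.52 and a fitted change of -0.032 ± 0.057. Its only feature was dim, at 116. Scn3a, prominent before birth, had -0.093, 0.15, -0.019 and -0.0063 and a fitted change of 0.0090 ± 0.060. Scn9a and Scn10a, best known from sensory neurons, had fitted changes of -0.039 ± 0.056 and 0.039 ± 0.057. Every feature of Scn9a was dim. Scn11a and Scn7a were at 0.044 and -0.0082. Scn3a, Scn2a, Scn1a, Scn9a and Scn7a lie in 1 cluster on chromosome 2, with 1 of these 5 above 0.

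Of the sodium channel beta subunits, which are cell adhesion molecules as well as channel subunits, 2 were measured and both were below 0 (median -0.035, and 0.040 without pair 1). Scn2b had -0.38, 0.10, -0.032 and 0.15 and a fitted change of -0.038 ± 0.074. Pairs 1 and 3 lie below 0 and pairs 2 and 4 above it. Scn3b had 0.14, -0.21, 0.39 and -0.44, the opposite pattern by dye, and a fitted change of -0.031 ± 0.074. Its bright feature (signal 8305) had 0.20, 0.040, 0.18 and -0.45 and a fitted change of -0.0087. Pair 2 was below 0 only in its dim feature (121), at -0.47.

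L-type alpha1 subunits, which couple calcium entry to gene expression in neurons and to contraction in muscle, had 3 of 4 members above 0 and a median of 0.035, which was 0.010 without pair 1, 0.0067 without pair 2 and 0.068 without pair 4. Cacna1c, the main L-type pore of brain and heart, had 0.21, 0.047, -0.10 and 0.17 and a fitted change of 0.083 ± 0.073, which was 0.0041 without pair 1 and 0.16 without pair 3. Both of its features were above 0 (0.13 and 0.037). Cacna1d, an L-type channel that opens at more negative voltages and takes part in pacemaking, had 0.29, 0.051, 0.087 and -0.16 and a fitted change of 0.066 ± 0.069, which was 0.016 without pair 1, 0.013 without pair 2 and 0.12 without pair 3 or 4. Of its 4 features, 3 were dim. Cacna1f of the retina and Cacna1s of skeletal muscle were at 0.0036 and -0.018.

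P/Q-, N- and R-type alpha1 subunits drive transmitter release, and all 3 were below 0, with a median of -0.025 (0.012 with arrays centred on the median and no loess). Cacna1a, the P/Q-type pore, had -0.21, 0.14, -0.13 and 0.098 and a fitted change of -0.025 ± 0.056 (95% interval -0.16 to 0.11). Cacna1b, the N-type pore, had -0.32, 0.27, -0.047 and 0.0041 and a fitted change of -0.022 ± 0.078. Cacna1e, the R-type pore, had -0.12, 0.013, -0.024 and 0.018 and a fitted change of -0.028 ± 0.056, from dim features only. In all 3, pairs 1 and 3 lie below pairs 2 and 4. T-type channels open near rest and support burst firing, and 1 of 3 was above 0 with a family median of -0.036 (0.0082 with arrays centred on the median and no loess). Cacna1h had 0.072, -0.36, 0.081 and -0.23 and a fitted change of -0.11 ± 0.058. Its 3 features all had fitted changes below 0, from -0.19 to -0.012, but differed by pair. The brightest (signal 411) was below 0 in all 4 pairs, at -0.090, -0.52, -0.088 and -0.048. A dim feature (132) turned with the dye, at 0.47, -0.57, 0.51 and -0.46. The third (145) had -0.17, 0.027, -0.18 and -0.18. Cacna1g had -0.11, 0.38, -0.013 and -0.0037 and a fitted change of 0.063 ± 0.079. Pair 2 alone is above 0 in this average, and the change was -0.033 without pair 2. The 2 features of Cacna1g disagreed. The brighter (signal 870) had 0.0081, 0.77, 0.035 and 0.016 and a fitted change of 0.21. The other (183) was below 0 in all 4 pairs, with a fitted change of -0.082. Cacna1i was at -0.036.

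Beta subunits, which sit inside the cell and bring the pore to the membrane, had 2 of 3 members above 0 and a median of 0.034, which turned to -0.12 for the ratios as deposited and to -0.052 with arrays centred on the median. Cacnb4, a beta subunit abundant in brain, had 0.28, -0.013, 0.14 and -0.26 and a fitted change of 0.039 ± 0.068. These averaged ratios are above 0 where cocaine was in Cy5 and below 0 in the other pairs. The 4 features of Cacnb4, with signals of 133 to 2256, had fitted changes from -0.020 to 0.13. They did not all share the pattern by dye: those at 704 and 133 had it. The brightest (2256) had 0.48, 0.27, 0.11 and -0.33, and the next (1211) had -0.16, 0.29, -0.20 and 0.15. Cacnb1, the beta subunit of skeletal muscle that is also present in brain, had 0.22, -0.60, 0.31 and -0.35 and a fitted change of -0.11 ± 0.066, which was -0.044 without pair 2 and -0.17 without pair 4. Cacnb2 was at 0.034.

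Of the 72 features, 44 had a signal of at least 150 and 28 were dim, and 7 genes had dim features only. Signals ran from 112 to 27885. Of 20 channel genes with more than 1 feature, 14 had features on both sides of 0, as did 53.1% of the 8159 such genes on the array. By number of features, this held for 6 of 10 channel genes with 2 features (all genes, 42.1%), 5 of 6 with 3 (66.4%) and 3 of 4 with 4 (78.5%). Differences between features of a gene were not tested. By feature, 28 were above 0 and 44 below, with a median of -0.019, against a median of -0.0035 over all features. The shares of all features above and below 0 were not counted, so no lean is read from these counts. In limma, 1 feature was at an unadjusted p under 0.05 (Cacna2d3), and 0 passed an adjusted p of 0.05 over all features.

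**Figure D4:**
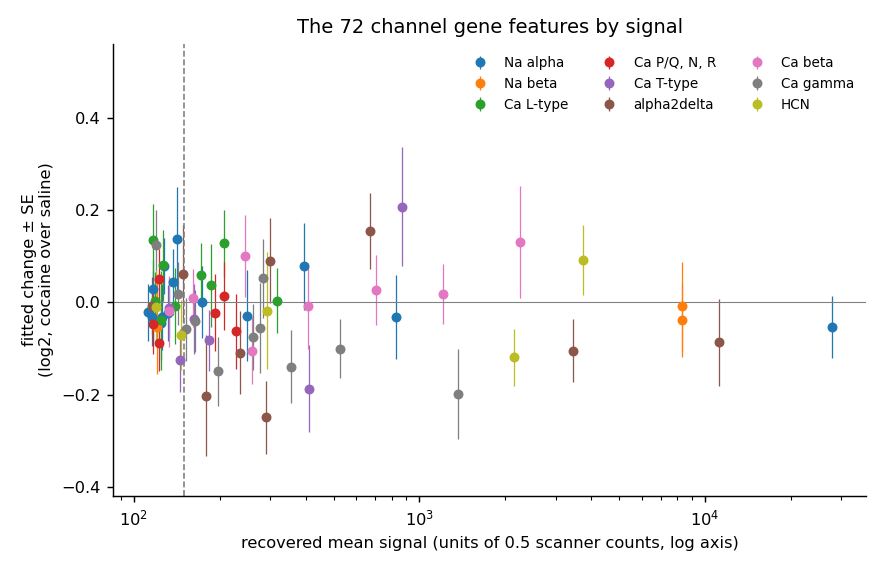
Fitted change (log2, cocaine over saline) with its moderated SE (n = 4 pairs) of each of the 72 features against its recovered mean signal (log axis, units of 0.5 scanner counts), coloured by family. The dashed line marks a signal of 150, under which 28 features lie; the brightest, a feature of Scn8a, is at 27885.

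A list of 39 genes, of which 34 were measured, held proteins that anchor, bind or modulate these channels. It also held other ion channels and their partners: Nalcn, Unc79, Unc80, Tpcn1, Tpcn2, Catsper1, Catsper2, Catsper3, Catsper4 and Hvcn1. Of the 34 measured genes, 15 were above 0 and 19 below, with a median fitted change of -0.015. None passed an adjusted p of 0.05 (limma) and 0 had an unadjusted p under 0.05 (2.61% of all genes). Ank3, whose product ankyrin-G holds sodium channels at the axon initial segment, had 0.94, 0.55, -0.12 and 0.19 and a fitted change of 0.39 ± 0.17 (adjusted p = 0.966). Its ratios differ widely between pairs, with pair 3 below 0. Nrcam, an adhesion molecule of the same membrane domain, had 0.22, 0.22, 0.060 and 0.036 and a fitted change of 0.13 ± 0.065. Gem, a small GTPase that inhibits calcium channels, had -0.030, -0.31, -0.079 and -0.085 and a fitted change of -0.13 ± 0.064, at a signal of 174. Nrcam was above 0 and Gem below 0 in all 4 pairs. Catsper1, with a fitted change of 0.032, was also above 0 in all 4. These are 3 of the 34 genes, where 6.5% of all genes kept 1 sign.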

How the data were processed

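The values the authors deposited are log2 ratios for 45220 features on each of 4 arrays. Per the labels, RNA was extracted with the Picopure kit and labelled with Cy3 or Cy5. Agilent Feature Extraction is listed in the submitters' processing notes; its version is not given in the sources used here, nor are its settings. On arrays 1 and 3 the deposited log2 values were logs of ratios of 2 whole numbers for 98.66% and 98.64% of features (tolerance 2e-14), against 1.61% and 1.5% in base 10, and the column medians were 0.42, -0.58, 0.41 and -0.43, so no dye normalization or background subtraction is seen. The mean signal was recovered for 97.6% of features by scaling the fractions of arrays 1 and 3 to agree (multiples up to 150, floor 108); a value can be off by a whole factor. The same signal served arrays 2 and 4.

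Ratios were loess-normalized within arrays (span 0.3, 4 iterations), averaged per symbol (33653 features with 1 symbol, 56 with several, 11511 not listed), and fitted with limma 3.58.1 in R 4.3.3 (lmFit, eBayes, dye term, 2 residual degrees of freedom, two-sided). All 38 members matched the RefSeq table by Entrez ID. The titles give the RNAs of the 4 cocaine and 4 saline mice different codes, which were read as separate animals. Array number limits precision.

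Named members were the 2 with the smallest p per family, those under an unadjusted p of 0.05, those with 1 direction in all pairs and a change of at least 0.1, and fixed references; the other members are given by their fitted change and were named after their values were seen. Members and lists were chosen with earlier results of these data known. Alternatives are in the closing section; slide and scan batches and saturation were not analysed here.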

Additional observations from a re-analysis of the deposited data

How the results depend on the processing

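No channel gene passed an adjusted p of 0.05 (limma) under any alternative tried. Leaving out 1 pair gave 0 to 1 genes higher and 0 to 4 lower among all genes, with 4 without pair 4 and 3 without pair 2. The ratios as deposited shifted the median of all genes to -0.080 and gave medians of -0.24 for sodium channel beta subunits, -0.12 for gamma subunits and -0.066 for all channel genes; under them Scn3a (-0.019), Scn8a (-0.19), Cacna1g (-0.043), Cacna2d4 (-0.0059), Cacnb4 (-0.12) and Hcn3 (-0.094) changed sign. Centring on the median without loess turned Scn2a (0.027), Scn8a (-0.12), Scn9a (0.016), Cacna1b (0.012), Cacna1e (0.029), Cacnb4 (-0.052) and Hcn3 (-0.027). Background subtraction turned Scn1a (0.0046), leaving out dim features Scn3a (-0.026), and taking the brightest feature Scn3a (-0.029) and Scn8a (-0.053). With 1 pair left out, the change ran from -0.060 to 0.057 for Scn1a, -0.031 to 0.049 for Scn3a, -0.026 to 0.051 for Scn8a, -0.12 to 0.048 for Scn2b, -0.095 to 0.032 for Scn3b, -0.091 to 0.046 for Cacna1b, -0.033 to 0.16 for Cacna1g, -0.032 to 0.13 for Cacna2d1, -0.022 to 0.10 for Cacnb4, -0.069 to 0.030 for Cacng2, -0.015 to 0.096 for Hcn3 and -0.13 to 0.038 for Hcn4. Changes that kept their sign but moved over 1.5 times included 0.013 to 0.12 for Cacna1d, 0.017 to 0.061 for Scn10a, -0.061 to -0.016 for Scn9a, -0.051 to -0.013 for Scn2a, -0.045 to -0.0051 for Cacna1a and -0.051 to -0.0044 for Cacna1e. Family medians ran from -0.021 to 0.026 for sodium channel alpha, -0.11 to 0.040 for sodium channel beta, 0.0067 to 0.068 for L-type, -0.051 to -0.0044 for P/Q-, N- and R-type, -0.077 to 0.038 for T-type, -0.089 to 0.012 for alpha2delta, -0.022 to 0.073 for calcium channel beta, -0.097 to -0.043 for gamma subunits and -0.13 to 0.038 for HCN channels. Among the members given by their fitted change only, Scn7a, Scn11a, Cacna1f, Cacna1s, Cacna1i, Cacnb2, Cacng1 and Cacng6 also changed sign with 1 pair left out. The cause was not tested. Without pair 4, Cacna2d4 also had an unadjusted p under 0.05 (adjusted p = 0.24 in limma); without pair 2, Cacng5 was the member that did. The fit is itself paired, since every ratio sets 1 cocaine mouse against 1 saline mouse on the same array, and no other pairing was tried. Signals near background limit the 28 dim features.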
